A study of Mus musculus with 2 samples.

Results

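The mouse genes Zfp900 to Zfp999 encode zinc finger proteins, most of them of the KRAB class. They were taken as the protein-coding genes of the GENCODE M21 annotation with a symbol from Zfp900 to Zfp999, letter suffixes included, which gave 65 of 21938 genes, on 12 chromosomes. Open chromatin had been mapped by DNase-seq, in which DNase I cuts accessible DNA and the cuts are counted by sequencing. The tissue was the spleen of 2 male mice aged 2 months, F1 hybrids (B6CASTF1/J) that carry a C57BL/6J and a CAST/EiJ genome. Each mouse gave 1 library, called animal 1 and animal 2 after the replicate numbers in the labels, and both belong to 1 group with no second condition. The labels name no transgene and no treatment, and the alleles of the parent strains are not separated in the files. All values are therefore descriptions of these animals, with no test between conditions. The animals are separate replicates, and the genes are not.

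KRAB zinc finger proteins bind DNA through an array of C2H2 fingers near their C terminus. Their KRAB domain recruits the scaffold protein TRIM28, which brings the histone methyltransferase SETDB1 and heterochromatin proteins to the bound site. In mouse the proteins are known for silencing transposable elements and for guarding imprinted regions, and the genes have multiplied by tandem duplication, so that neighbours within a cluster are often close copies of each other. ZFP932, for example, is known to repress endogenous retroviruses in mouse embryonic stem cells. For most of the other members no function is named here.

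Translated from the annotation, 61 of the 65 members matched a KRAB pattern. Zfp956, Zfp957, Zfp972 and Zfp974 did not. At least 1 finger was found in 62 members, with a median of 11 fingers and a maximum of 21 in Zfp974. With at most 1 Mb between neighbours, 48 members fell into 7 clusters and 17 stood alone. The largest clusters were one of 16 members on chromosome 4, one of 10 on chromosome 2 and one of 10 on chromosome 17.

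The tissue label was checked against marker genes. In both animals all 10 markers of B cells, T cells and red pulp macrophages had a promoter peak. Some were low: Spic had 0.566 in animal 1 and 0.407 in animal 2, Cd8a 0.652 and 0.876, and Cd3e 0.838 and 0.930. Of 5 markers of other tissues, Alb, Ttr, Krt5 and Neurod1 had none, and the epithelial cadherin gene Cdh1 had a low one of 0.473 in animal 1 and 0.774 in animal 2. By the mean of both animals Cdh1, at 0.623, lay above Spic, at 0.487. Animal 1 had 79246 peaks in the longer of its peak lists and 211394 footprints, and animal 2 had 77231 peaks and 215907 footprints. Height is the signal that the authors deposited for each peak, without a written unit. Heights rose in equal steps of 0.00716 in animal 1 and 0.00679 in animal 2, and all of them were whole numbers of steps within 0.01 of a step. The spleen is a mixture of cells, so fewer cells with an open promoter and a less open promoter per cell cannot be told apart.

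The sequences that carry the first result come from the chromosome 2 cluster, where Zfp971 had a listed promoter peak and the other 9 did not. Shown are 80 bases of the gene strand at the Zfp971 peak, read from GRCm38.p6 (mm10) at chr2:178023161-178023240 on the plus strand, and the aligned bases of the promoters of Zfp931 at chr2:178078499-178078578 on the minus strand and Zfp972 at chr2:177925703-177925782 on the minus strand. Capitals mark the bases that differ from Zfp971.
Zfp971: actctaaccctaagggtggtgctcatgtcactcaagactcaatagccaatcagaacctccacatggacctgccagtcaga
Zfp931: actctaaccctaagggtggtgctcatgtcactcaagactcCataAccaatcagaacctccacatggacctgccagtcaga
Zfp972: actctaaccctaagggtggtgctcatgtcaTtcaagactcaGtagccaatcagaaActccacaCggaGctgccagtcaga
These 80 bases occur without a change in the promoters of 7 more members of the cluster, Zfp965, Zfp966, Zfp967, Zfp968, Zfp969, Zfp970 and Zfp973. Zfp931 differed at 2 bases and Zfp972 at 5. A read lying wholly within the 80 bases has no single place, and the part of the copies in the Zfp971 peak was not tested. A promoter here is the DNA within 1 kb of any annotated transcription start site (TSS) of a gene.

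A second set of sequences shows a pair of words found together in part of the open promoters. Each line gives 100 bases of the gene strand from the strongest promoter peak and its flanks, chosen to start 20 bases before the 8-letter word TGTCACTC. Capitals mark that word and CCAAT, the core of the site of the transcription factor NFY, on either strand. The segments are chr2:178023166-178023265 (plus) for Zfp971, chr2:150218000-150218099 (plus) for Zfp937, chr8:4613065-4613164 (plus) for Zfp958, chr10:82241286-82241385 (minus) for Zfp938, chr17:17063918-17064017 (plus) for Zfp960 and chr17:55891972-55892071 (plus) for Zfp959, all of GRCm38.p6.
Zfp971: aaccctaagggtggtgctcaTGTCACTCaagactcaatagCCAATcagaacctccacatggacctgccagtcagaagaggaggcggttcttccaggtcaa
Zfp937: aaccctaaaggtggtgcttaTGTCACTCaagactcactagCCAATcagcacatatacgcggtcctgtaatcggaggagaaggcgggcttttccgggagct
Zfp958: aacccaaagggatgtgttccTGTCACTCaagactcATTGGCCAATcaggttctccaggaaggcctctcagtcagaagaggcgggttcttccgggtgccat
Zfp938: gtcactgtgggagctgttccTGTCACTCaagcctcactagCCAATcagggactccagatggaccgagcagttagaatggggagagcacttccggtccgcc
Zfp960: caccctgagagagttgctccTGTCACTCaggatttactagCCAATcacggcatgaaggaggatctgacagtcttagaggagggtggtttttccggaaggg
Zfp959: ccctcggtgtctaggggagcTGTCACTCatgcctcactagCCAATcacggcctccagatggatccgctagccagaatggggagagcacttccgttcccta
The 6 segments were picked because they hold both the word and CCAAT, so their likeness in this respect follows from the choice.

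The question put to the data was which of these genes have an open promoter in the spleen. A promoter peak in both animals was found for 36 of the 65 members (55.4%), for 289 of the 326 genes named Zfp1 to Zfp899 (88.7%), and for 59.8% of all protein-coding genes. The members as a whole were near the share of all genes and below that of the other Zfp genes. A gene with no promoter peak in either animal is called closed here, which says only that no peak was listed. Animal 1 had 36 open members and animal 2 had 37. The difference was Zfp989 of the chromosome 4 cluster, which had a peak of 0.462 in animal 2 only. In all 36 the strongest peak of animal 1 overlapped that of animal 2, and all 36 also had a peak in the shorter, stricter list of both animals. The 36 genes used 34 sites, since Zfp934 and Zfp935 shared 1 peak, and so did Zfp942 and Zfp943.

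The members split by chromosome cluster. In the chromosome 2 and chromosome 4 clusters together, 3 of 26 members were open (11.5%), against 33 of the 39 members elsewhere (84.6%). The pooled clusters are those with the lowest shares of open members, 10% and 12.5%, so the size of this contrast follows in part from the choice. Lone members were open in 15 of 17 cases (88.2%), and members in clusters in 21 of 48 (43.8%). The plot of promoter heights by cluster gives each gene in each animal.

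**Figure D1:**
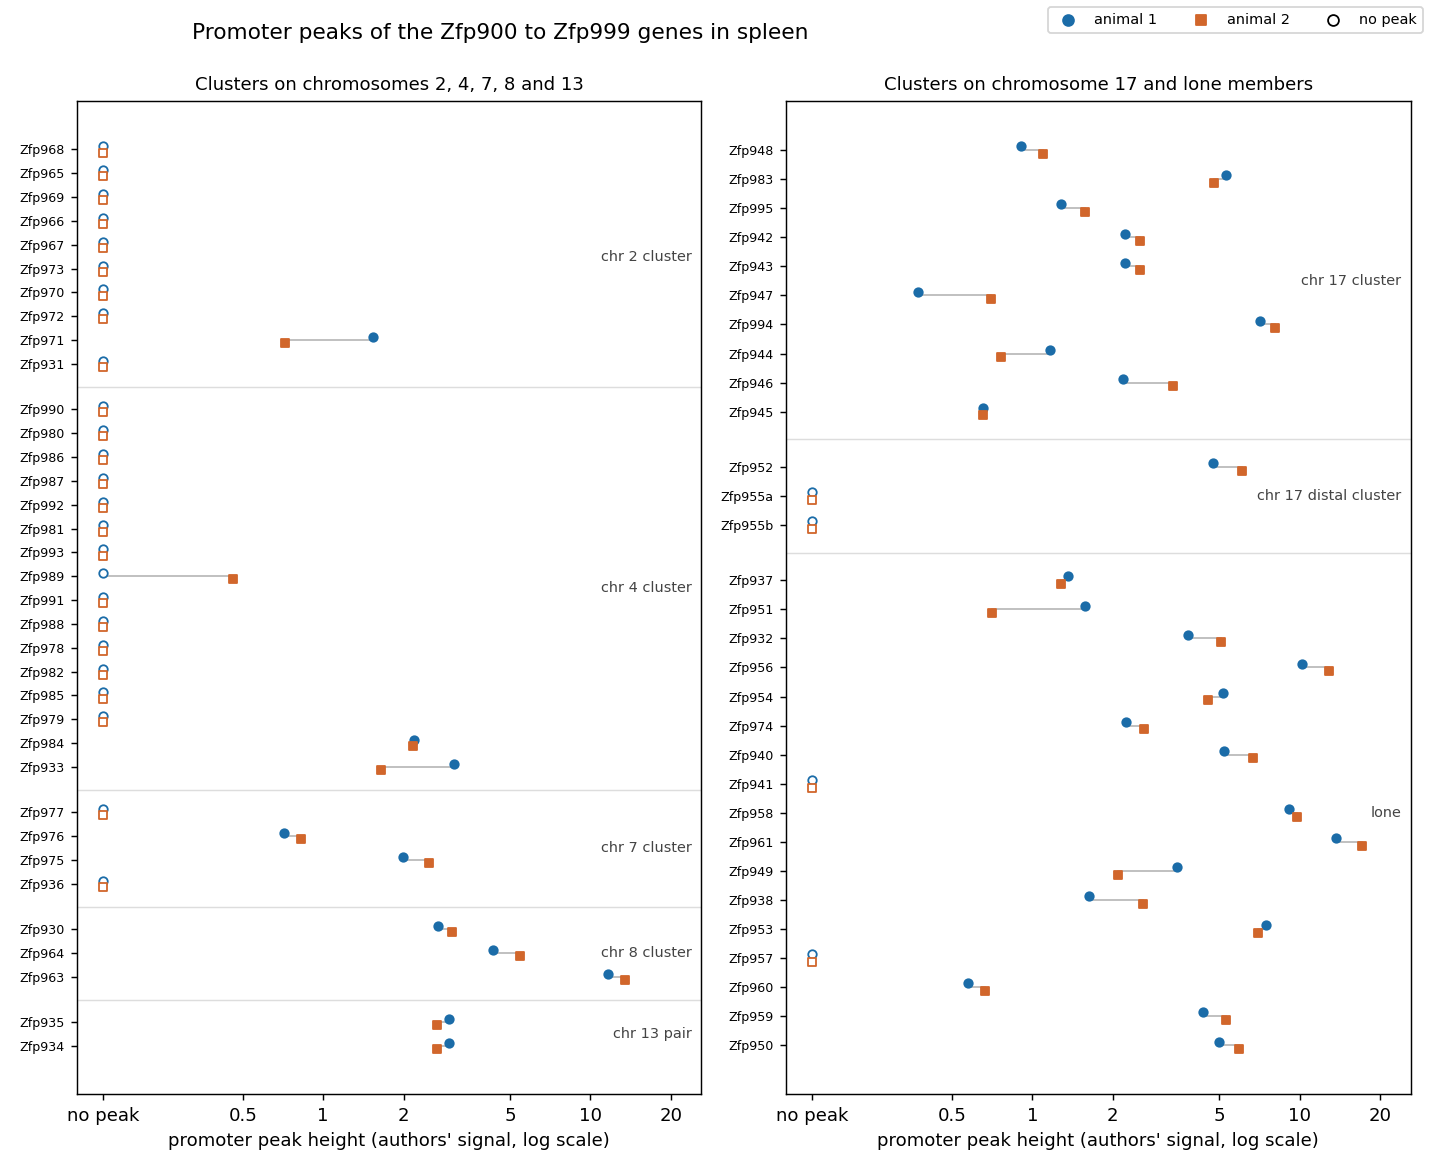
Height of the strongest promoter peak (authors' signal, log scale) of each of the 65 members, grouped by cluster, with circles for animal 1, squares for animal 2 and open symbols at the left edge for no peak. The clusters on chromosomes 2 and 4 are almost empty, with 1 of 10 and 2 of 16 members open in both animals, while all 10 members of the larger chromosome 17 cluster are open.

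The chromosome 2 cluster (chr2:175372436-178078476) held 10 members and 1 open promoter. Zfp971 had a height of 1.54 in animal 1 and 0.720 in animal 2, averaging 1.13 ± 0.58 (SD, n = 2), with 4 and 5 footprints in its promoter peaks in animals 1 and 2. Zfp931, Zfp965, Zfp966, Zfp967, Zfp968, Zfp969, Zfp970, Zfp972 and Zfp973 had no promoter peak in either animal. The cluster was poor in peaks of any kind, with 4.80 peaks per Mb in animal 1 and 7.76 in animal 2, against 29.1 and 28.3 over the genome. Of the 28 other protein-coding genes in its span, 5 were open, namely Gm14305, Gm14322, Gm14325, Gm14326 and Gm14410, named after their values were seen.

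The chromosome 4 cluster (chr4:145510759-147848366) held 16 members and 2 open promoters, both at its distal end. Zfp984 had a height of 2.18 in animal 1 and 2.17 in animal 2. Zfp933 had 3.09 in animal 1 and 1.65 in animal 2, so it was the highest in the cluster in animal 1 and second to Zfp984 in animal 2. Zfp978, Zfp979, Zfp980, Zfp981, Zfp982, Zfp985, Zfp986, Zfp987, Zfp988, Zfp990, Zfp991, Zfp992 and Zfp993 had none in either animal. Peak density was 12.8 per Mb in animal 1 and 22.7 in animal 2.

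The larger chromosome 17 cluster (chr17:21567008-22867134) was the opposite in its share of open promoters, with all 10 members open. Its heights ran from Zfp947, with 0.372 in animal 1 and 0.699 in animal 2, to Zfp994, with 7.09 in animal 1 and 8.07 in animal 2. Zfp947 and Zfp994 have promoters that are 89.5% identical over 1768 aligned bases, and their mean heights were 0.536 ± 0.231 and 7.58 ± 0.694 (SD, n = 2 each), with no overlap. Zfp983 had 5.31 in animal 1 and 4.79 in animal 2. Zfp945, Zfp948, Zfp944 and Zfp995 were low, with mean heights from 0.652 to 1.43, and Zfp942, Zfp943 and Zfp946 lay between 2.37 and 2.76. The peak of Zfp944 also overlaps the promoter of Zfp758, and the strongest peak of Zfp942 and Zfp943, which are transcribed away from each other, is the same for both. It lies inside Zfp943, with its midpoint 145 bases downstream of the nearest Zfp943 TSS in animal 1 and 185 in animal 2, and within the promoter of Zfp942, so its height was counted for each gene. Peak density in the span was 29.2 per Mb in animal 1 and 28.5 in animal 2, close to that of the genome.

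The smaller clusters were mixed. On chromosome 8 (chr8:69209038-69749970) all 3 members were open. Zfp963 had the highest promoter, with 11.6 in animal 1 and 13.5 in animal 2, and Zfp930 the lowest, with 2.69 in animal 1 and 3.04 in animal 2. On chromosome 7 (chr7:42579783-43192109) 2 of 4 were open: Zfp975 had 1.98 in animal 1 and 2.49 in animal 2, Zfp976 had 0.716 in animal 1 and 0.828 in animal 2, and Zfp936 and Zfp977 had no peak. In the distal cluster of chromosome 17 (chr17:32993129-33307241) Zfp952 had 4.75 in animal 1 and 6.08 in animal 2, while Zfp955a and Zfp955b had no peak. The pair Zfp934 and Zfp935 on chromosome 13 (chr13:62453715-62571199) shared a peak of 2.97 in animal 1 and 2.68 in animal 2. Among the lone members only Zfp941 and Zfp957 had no promoter peak. The other 15 had a median mean height of 4.82, against 2.37 for the 21 open members in clusters. Zfp932, the repressor of endogenous retroviruses, had 3.81 in animal 1 and 5.10 in animal 2. Zfp940, Zfp950, Zfp954 and Zfp959 were of similar height, with means from 4.82 to 5.97, and Zfp937, Zfp938, Zfp949, Zfp951 and Zfp974 were lower, with means from 1.14 to 2.78.

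**Figure D2:**
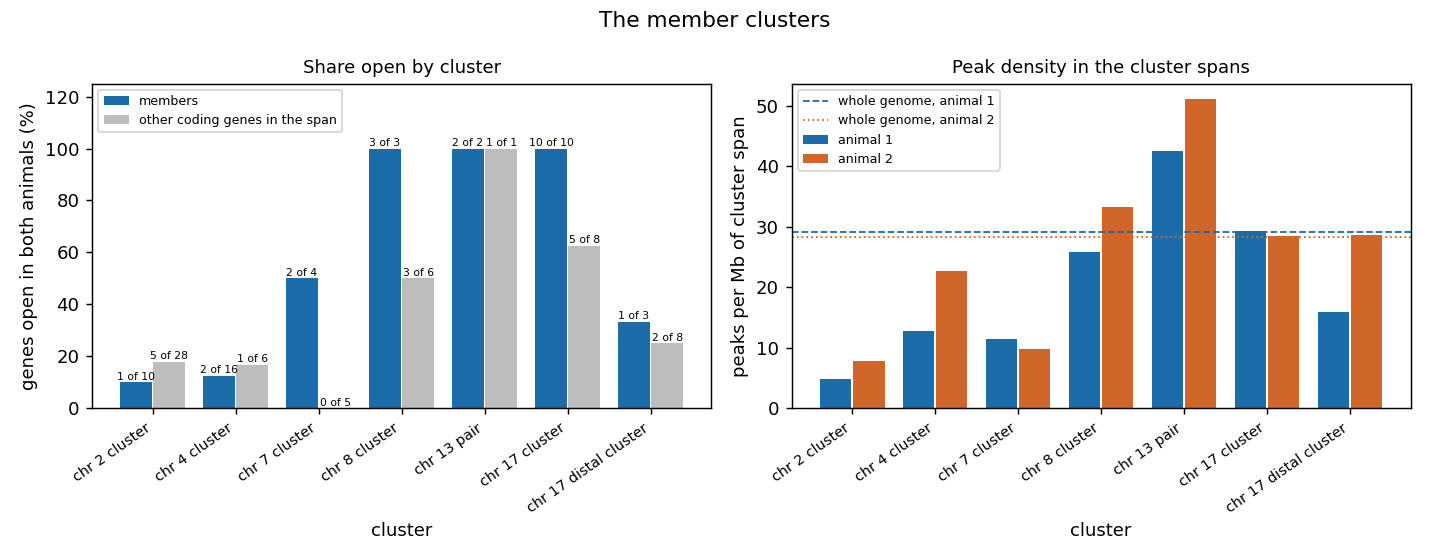
Left, share of members (blue, left bars) and of other protein-coding genes in the cluster span (grey) with a promoter peak in both animals; right, peaks per Mb of each cluster span in each animal, with dashed and dotted lines for the genome (29.1 in animal 1, 28.3 in animal 2). The chromosome 2 span has the fewest peaks, 4.80 per Mb in animal 1 and 7.76 in animal 2.

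Openness moved with how unique the promoter sequence is, and this bears on every count above. Uniqueness was measured as the share of 36-base words of a promoter that occur once in the genome, since a read from a repeated word has no single place. The median was 55.7% for members, 97.3% for other Zfp genes and 97.7% for all protein-coding genes. It was 77.2% for the 36 open members, with a range from 22.6% to 100%, and 14.2% for the 28 closed ones, with a range from 0% to 100%. In the chromosome 2 cluster 6 members had no unique word at all: the promoters of Zfp965 and Zfp973 are identical over 2001 bases, those of Zfp967 and Zfp969 likewise, and those of Zfp966 and Zfp968 over 1975 bases. The part of uniqueness in the absence of peaks was not tested, and how the authors treated reads with several matches is not stated in any source at hand. A missing peak at such a promoter is therefore not a measured closed state. Likewise, a peak listed at a promoter of few unique words, as at Zfp934, Zfp935 and Zfp971, may hold reads from copies, which was not tested.

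The members' shares were also set beside those of genes of like uniqueness. With under 25% unique words, 1 of 21 members was open (4.76%) and 4.25% of the 1011 protein-coding genes. With at least 50% unique words, 31 of 37 members were open (83.8%), 89.9% of other Zfp genes and 63.3% of all protein-coding genes. Most closed members, 22 of 28, had under 50% unique words. Longer words of 76 bases raised the members' median uniqueness to 84.9% and left 13 members under 25%, of which none was open.

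Uniqueness did not sort the members completely. Zfp941 at chr7:140807449-140822178 had 100% unique words and Zfp957 at chr14:79212355-79247369 had 97.8%, and neither had a promoter peak. Zfp936, Zfp977, Zfp982 and Zfp985 had between 55.7% and 59.8% and no peak, whereas Zfp994 had 54.3% and was among the highest promoters. Close to the most 5′ TSS alone, however, the share was 82.0% for Zfp994 and from 37.2% (Zfp982) to 58.6% (Zfp936) for the other 4. Zfp935 with 22.6%, Zfp934 with 27.5%, Zfp971 with 30.3%, Zfp937 with 42.6% and Zfp932 with 45.8% were open. The cut-rate lists, which give every interval under a false discovery rate of 0.05, held no interval in the promoters of 27 of the 28 closed members in either animal. The exception was Zfp977, with 24 bases and a best rate of 0.0394 in animal 2. These lists come from the same libraries as the peaks, so they are not separate evidence of a closed promoter.

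**Figure D3:**
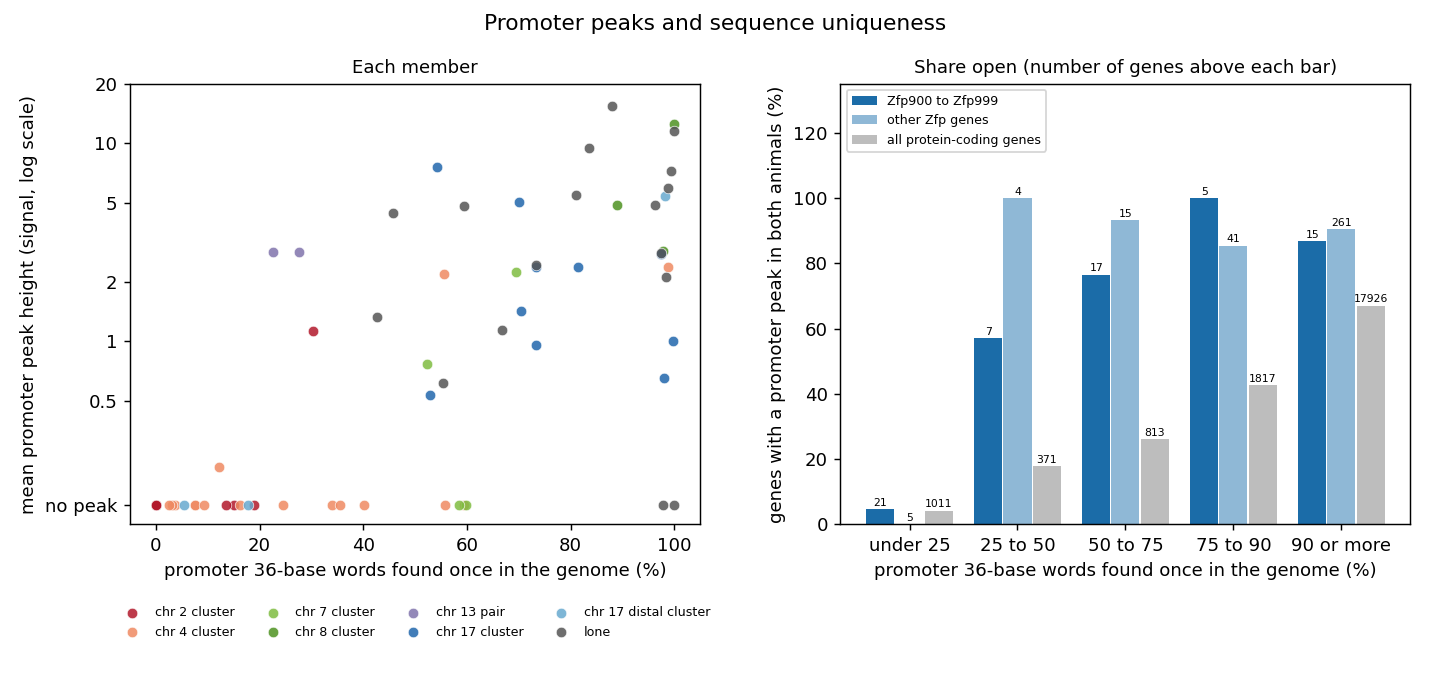
Left, mean promoter height (log scale) of each member against the share of its promoter's 36-base words found once in the genome, coloured by cluster, with members lacking a peak at the bottom and Zfp989, open in animal 2 only, just above them. Right, share of genes with a promoter peak in both animals by uniqueness class for members, other Zfp genes and all protein-coding genes, with gene numbers above the bars; it is 4.76% of members and 4.25% of all genes in the lowest class.

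CpG content moved with openness too. The ratio of observed to expected CpG in the 250 bases on each side of the most 5′ TSS had a median of 0.511 in open and 0.288 in closed members. Under a ratio of 0.4, 7 of 31 members were open (22.6%), 63.6% of other Zfp genes and 23.7% of all protein-coding genes. From 0.4 to 0.6, 17 of 20 members were open (85%), 89.7% of other Zfp genes and 58.7% of all protein-coding genes. At 0.6 or more, 12 of 14 members were open (85.7%), 93.5% of other Zfp genes and 88.9% of all protein-coding genes. Open promoters of low CpG ratio included Zfp947 at 0.289 and Zfp971 at 0.325. CpG ratio and uniqueness are both low in the chromosome 2 and 4 clusters, and their parts were not tested.

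Where members were open, their promoters were lower than those of other genes. The median of the mean height was 2.77 over the 36 open members, 5.90 over the 289 open Zfp1 to Zfp899 genes and 6.42 over the 13116 open protein-coding genes. By animal the members' median was 2.83 in animal 1 and 2.64 in animal 2, and that of all open genes 5.82 in animal 1 and 7.0 in animal 2. Only 6 open members lay above the median of all open genes, while 17 lay below its lower quartile of 2.66. The order varied with the uniqueness of the promoter, as defined above. With at least 90% unique words the medians were 2.86 for 13 open members, 6.39 for other Zfp genes and 6.59 for all genes. From 75 to 90% they were 5.47 for 5 members, 4.15 for other Zfp genes and 6.85 for all genes. From 50 to 75% they were 2.18 for 13 members, 4.81 for other Zfp genes and 3.36 for all genes, and from 25 to 50% they were 2.07 for 4 members, 1.22 for other Zfp genes and 2.02 for all genes. With under 25%, the 1 open member, Zfp935, had 2.82 and all genes had 1.13.

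Zfp961, a lone gene at chr8:71951038-71993792, had the highest promoter, with 13.7 in animal 1 and 17.2 in animal 2, averaging 15.4 ± 2.47 (SD, n = 2). Zfp963 followed with a mean of 12.6 ± 1.31, Zfp956, one of the members without a KRAB match, with 11.6 ± 1.87 and Zfp958 with 9.47 ± 0.45. Their per-animal heights were 11.6 and 13.5 for Zfp963, 10.3 and 12.9 for Zfp956, and 9.15 and 9.79 for Zfp958, animal 1 given first. Zfp994, described above, and Zfp953 completed the 6 highest, and Zfp953 had 7.51 in animal 1 and 6.97 in animal 2. The heights of Zfp961 did not overlap those of the next gene, Zfp963, whereas those of Zfp963 and Zfp956 did overlap. The whole animal 1 peaks of Zfp961 (chr8:71950881-71951100, plus strand) and Zfp963 (chr8:69749601-69749780, minus strand) are shown from GRCm38.p6 because they differ in what they hold. Capitals mark CCAAT in Zfp961 and the cyclic AMP response element TGACGTCA in Zfp963. The Zfp963 peak itself holds no CCAAT, but the 300 bases around its midpoint do.
Zfp961: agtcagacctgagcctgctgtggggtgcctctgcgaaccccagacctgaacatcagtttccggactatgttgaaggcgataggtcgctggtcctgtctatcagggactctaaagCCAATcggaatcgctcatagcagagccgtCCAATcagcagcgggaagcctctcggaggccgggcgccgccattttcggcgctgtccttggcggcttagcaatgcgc
Zfp963: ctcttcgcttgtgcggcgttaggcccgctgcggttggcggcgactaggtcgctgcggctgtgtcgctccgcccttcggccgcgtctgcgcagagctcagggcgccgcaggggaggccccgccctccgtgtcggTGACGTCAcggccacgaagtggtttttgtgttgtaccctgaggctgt
The Zfp961 peak holds 16 CpG in 220 bases and the Zfp963 peak 23 in 180. Zfp963 was also unusual in position, its peak lying 271 bases downstream of the nearest TSS.

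The lowest open promoters were those of Zfp947, Zfp960 and Zfp945. Zfp947 had 52 steps of signal in animal 1 and 103 in animal 2. Zfp960 had a height of 0.573 in animal 1 and 0.665 in animal 2, or 80 and 98 steps. Zfp945 had 0.652 in both animals. These values stood above the lowest peaks of the lists, which had 8 steps in animal 1 and 6 in animal 2. Zfp945 had 98.0% unique promoter words and a CpG ratio of 0.508. Its strongest peak was wide, with 600 bases in animal 1 and 560 in animal 2, beside medians of 220 and 200 over open members.

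The animals were compared gene by gene as the log2 ratio of heights, animal 1 over animal 2. Over the 36 open members the median was −0.20, and over all open genes it was −0.27, so most heights were lower in animal 1, and 13 of the 36 members and 1918 of the 13116 genes were higher there. The members scattered more widely around that shift, with an SD of 0.46 across members against 0.29 across all genes. The genes higher in animal 1 made up 36.1% of the members and 14.6% of all open genes. Heights within 1.5-fold of each other were found for 28 members (77.8%) and for 87.9% of all open genes. In the plot of ratios against height the scatter of all genes is wider at low heights, where many members lie, and the part of height was not tested.

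The largest ratios in favour of animal 1 belonged to Zfp951, Zfp971 and Zfp933. Zfp951 had a height of 1.57 in animal 1 and 0.706 in animal 2, a log2 ratio of 1.15. The log2 ratio was 1.10 for Zfp971 and 0.91 for Zfp933. In the other direction Zfp947 had −0.91, Zfp938 had −0.67 with heights of 1.63 in animal 1 and 2.59 in animal 2, and Zfp946 had −0.62 with 2.18 in animal 1 and 3.35 in animal 2. The strongest Zfp947 peak was 485 bases wide in animal 1 and 200 in animal 2, so its ratio compares peaks of unlike extent. With 1 library per animal, these ratios describe a pair of libraries.

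**Figure D4:**
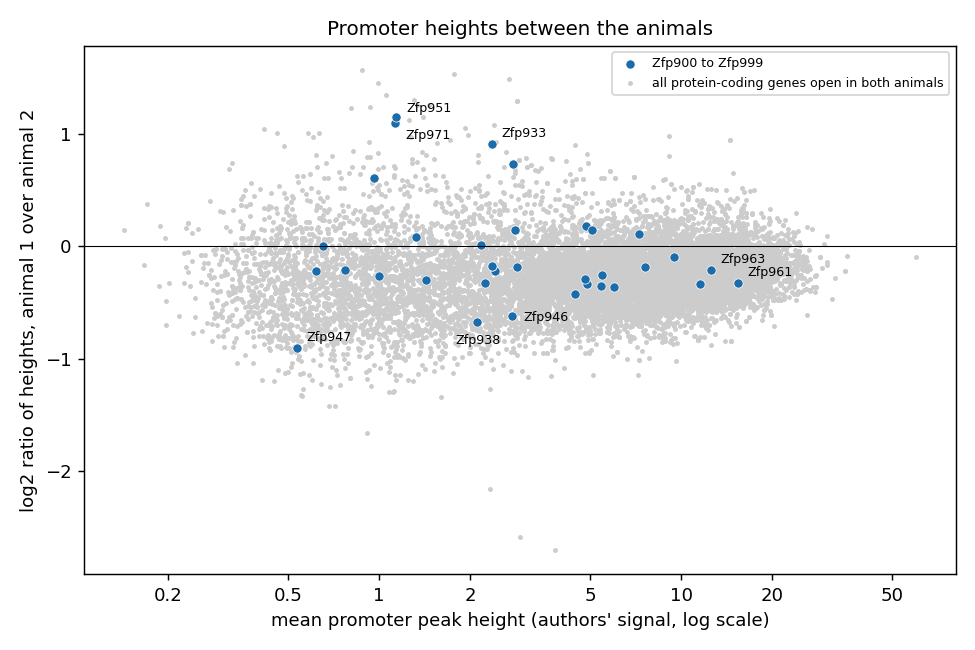
Log2 ratio of promoter heights, animal 1 over animal 2, against the mean height (log scale) for the 36 members (blue) and all protein-coding genes (grey) open in both animals. Zfp951, Zfp971 and Zfp933 lie highest among the members and Zfp947 lowest, from 1.15 to −0.91.

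The strongest peaks lay close to the start sites. The median distance of the peak midpoint from the nearest TSS was −47.5 bases in animal 1 and −38 in animal 2, where negative means upstream. It lay upstream in 32 of 36 members (88.9%) and in 74.2% of all open genes, in each animal. The peaks had a median width of 220 bases in animal 1 and 200 in animal 2, as did those of all genes.

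Footprints, short stretches within a peak that were protected from DNase I, were found in the promoter peaks of all 36 open members in both animals. That is 55.4% of the 65 members, beside 58.0% of all protein-coding genes, and 100% of open members beside 97% of open genes. The median number per open member was 5 in each animal. Zfp945, Zfp948 and Zfp952 had the most when both animals are summed, with 6 and 9, 7 and 8, and 7 and 8 in animals 1 and 2. In a single animal others had as many or more, such as Zfp959 with 9 in animal 1 and 3 in animal 2, and Zfp974 with 5 in animal 1 and 9 in animal 2. The footprint list carries a constant in place of a score, so footprints could not be ranked.

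Sequence motifs were searched in the 300 bases around the midpoint of the strongest animal 1 promoter peak, as exact letters on both strands. NFY, spelled CCAAT, was found in 25 of 36 open members (69.4%), in 37.0% of open other Zfp genes and in 37.6% of all open genes. Zfp934 and Zfp935 share 1 window, which was counted for each. SP/KLF, spelled GGGGCGGGG, was found in 1 member (2.78%), Zfp974, in 14.5% of other Zfp genes and in 23.4% of all. These shares were not matched for base composition, whose part was not tested. Over open and closed genes alike, the median CpG ratio was 0.409 in members, 0.699 in other Zfp genes and 0.586 in all protein-coding genes. NRF1 (GCGCATGC), YY1 (AAGATGGCG) and CTCF (AGGGGGCGC) were found in 0 of 36 members. They were found in 7.61%, 6.57% and 1.38% of open other Zfp genes, and in 6.03%, 4.10% and 3.04% of all open genes. Shares this small amount to few of 36 genes, so the absence says little. The E-box CACGTG was found in 13.9% of members and 10.8% of all genes, ETS (CCGGAAGT) in 8.33% and 8.86%, and ZNF143 (ACTACAATT) in 2.78% of members, namely Zfp933, in 3.46% of other Zfp genes and in 0.778% of all genes. The cyclic AMP response element was found in 5.56% of members, namely Zfp963 and Zfp953, in 5.54% of other Zfp genes and in 4% of all genes. None of these motifs contains another. A match is a run of letters and not a measured binding site.

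The word TGTCACTC, chosen after the windows had been seen because it was the 8-letter word in most of them, was found in 12 of 36 members (33.3%), in 4.84% of open other Zfp genes and in 1.59% of all open genes. The 12 were Zfp930, Zfp937, Zfp938, Zfp945, Zfp952, Zfp958, Zfp959, Zfp960, Zfp971, Zfp975, Zfp994 and Zfp995, on 5 chromosomes. In 8 of them CCAAT followed on the same strand after exactly 12 bases, as in the segments printed above. That spacing was found in 8 of 36 members (22.2%), 2.08% of open other Zfp genes and 0.221% of all open genes. The spacing, like the word, was taken from the members' own windows, so these contrasts follow in part from the choice. With any gap up to 20 bases the pair was found in 8 members, 6 open other Zfp genes and 33 of all 13116 open genes. The 6 other Zfp genes were Zfp119a, Zfp119b, Zfp120, Zfp345, Zfp442 and Zfp788, named after their windows were seen. The genes are related by descent, so their promoters are not independent instances. Heights of the 8 members ran from 0.619 in Zfp960 to 9.47 in Zfp958 (means of both animals). A footprint overlapped the word in 7 of the 12 members in animal 1 (58.3%) and 8 in animal 2 (66.7%), and in 40.9% and 43.3% of the 208 open genes that hold it in animals 1 and 2. One overlapped CCAAT in 15 of the 25 members in animal 1 (60%) and 17 in animal 2 (68%), and in 44.1% and 51.1% of the 4928 open genes that hold it. With 12 and 25 members these shares rest on few genes, and no test was made.

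**Figure D5:**
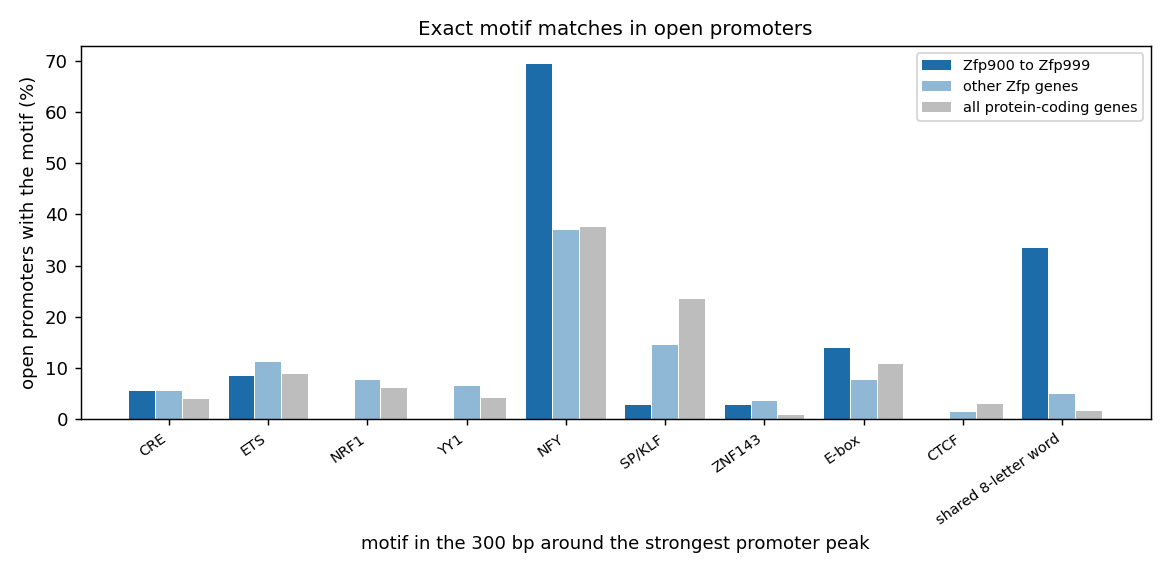
Share of open promoters with an exact motif match within 300 bp around the strongest promoter peak, for Zfp900 to Zfp999 (left bars), other Zfp genes and all protein-coding genes; the shared 8-letter word was chosen after the members' windows were seen. NFY is found in 69.4% of members and 37.6% of all genes, and SP/KLF in 2.78% and 23.4%.

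Gene bodies were taken from 1 kb past the start sites to the 3′ end. A gene-body peak in both animals was found for 13 of 65 members (20%), for 21.5% of other Zfp genes and for 35.3% of all protein-coding genes. In all, members had 24 such peaks in animal 1 and 34 in animal 2, counting a peak for each gene that holds it. Most lay in introns. The last exon, which in these genes usually codes for the fingers, held a peak only in Zfp975, of 0.372 in animal 1 and 0.360 in animal 2. Its midpoint lay outside the coding sequence, 225 bases from the 3′ end in animal 1 and 238 in animal 2. A body peak centred on a coding exon was found in Zfp934, of 0.333 and in animal 2 only.

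The highest gene-body peaks were found in Zfp935 and Zfp950. Zfp935 had one of 5.64 in animal 1 and 8.98 in animal 2, but it overlaps the promoter of the coding gene Gm49359. Zfp950 at chr19:61053840-61140840 had 5 body peaks in animal 1 and 6 in animal 2, the strongest of 5.81 in animal 1 and 6.52 in animal 2, which is above its own promoter peak of 4.99 in animal 1 and 5.95 in animal 2. That peak lay in an intron and overlapped no annotated promoter. Zfp957 had no promoter peak but an intronic peak of 1.65 in animal 1 and 2.02 in animal 2. Next came Zfp961, with 1.39 in animal 1 and 1.86 in animal 2, Zfp944, with 1.26 in animal 1 and 1.33 in animal 2, and Zfp948, with 1.17 in animal 1 and 1.03 in animal 2. In Zfp948 the body peak overlapped in height with the promoter peak, which was 0.910 in animal 1 and 1.09 in animal 2. Of the members with no promoter peak in either animal, Zfp957, Zfp973 and Zfp980 had a body peak in both animals, and that of Zfp973 overlaps the promoter of Gm14305.

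Genes listed for the co-repressor machinery of KRAB zinc finger proteins were open throughout. All 17 genes of this list were open in both animals, beside 59.8% of all protein-coding genes. At a CpG ratio of 0.6 or more the share of all genes was 88.9%, and the list was not matched for CpG ratio. The median of their mean heights was 10.1. Trim28, the scaffold bound by the KRAB domain, had 6.31 in animal 1 and 7.28 in animal 2. Setdb1, which methylates histone H3 at the bound site, had 7.92 in animal 1 and 10.8 in animal 2. By the mean of both animals Daxx, a chaperone of a histone H3 variant, was highest, with 16.6 in animal 1 and 20.9 in animal 2, although Mphosph8, with 18.1 in animal 1 and 18.6 in animal 2, was above it in animal 1. By the same mean its partner Atrx, a chromatin remodeller, was lowest, with 2.25 in each animal. Atrx lies on chromosome X, of which these male mice carry a single copy, and the part of copy number in its rank was not tested. The heterochromatin protein genes Cbx1, Cbx3 and Cbx5 had heights of 7.01, 13.5 and 12.3 in animal 1 and of 8.38, 10.3 and 15.8 in animal 2.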

How the data were processed

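DNase-seq files of 2 spleens were used, 1 library per animal, on the mm10 assembly per the labels. The authors deposited peaks, footprints and cut-rate intervals for each library on its own. For the aligner, the peak and footprint callers and the handling of reads with several matches, the tool and its settings are not given in the sources used. In the deposited narrowPeak lists only position and height differ between peaks, and the height is a signal made by the authors. The deposited cut-rate files hold a q-value (FDR) per interval, all under 0.05, and the deposited footprint files hold the constant 0.01 in that place. The labels give no read length.

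Genes and TSS came from GENCODE M21 and sequence from the GRCm38.p6 assembly, on which no interval passed a chromosome's end. Python 3.11.15, numpy 2.4.6 and pandas 2.3.3 were used. A promoter was 1 kb on each side of any TSS, and its height that of the strongest peak overlapping it by 1 bp. A gene body ran from there to the 3′ end. A footprint counted where its midpoint lay in a promoter peak. A member counted as open with a peak in both animals. A non-coding gene of the same name series was left out. The promoter count was checked on 200 simulated promoter peaks, and the count of unique words on made sequences. No statistical test was run, since there is 1 group.

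The members, lists and motifs were chosen with earlier results of these data known. Named in full were the 6 highest and 3 lowest open promoters, the member open in 1 animal, the highest and lowest open member of each cluster of 3 or more, the 6 highest gene-body peaks, the 3 highest and 3 lowest ratios between animals and the 3 members with most footprints. Alternatives changed the promoter width, the TSS used, the peak list, the overlap, the animals, the cluster gap and the footprint rule. The word length of 76 and the restriction to unique promoters were added after the data had been seen. No counting interval is given, because the cut totals are not stated.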

Additional observations from a re-analysis of the deposited data

How the results depend on the processing

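The 36 open members were 36 with promoters of 500 bp or 2 kb each side, with the shorter peak list and with the peak midpoint inside the promoter, and 35 with the most 5′ TSS only, where Zfp934 lost its peak. With only peaks at or above the median height of each list they were 29, and Zfp944, Zfp945, Zfp947, Zfp951, Zfp960, Zfp971 and Zfp976 were the members lost. With a single animal the count ran from 36 to 37, and the median height of open members from 2.607 without animal 1 to 2.826 without animal 2, against 2.771 with both. Gene-body peaks in both animals fell to 5 members with that restriction, against 13 with all peaks, and ran from 13 to 16 with a single animal. The shorter list gave 9 members and leaving out peaks at promoters of other coding genes gave 12. Open members in clusters were 19 with a gap of 250 kb and 23 with a gap of 2 Mb, and lone open members 17 and 13 under the same gaps. Members with 50% or more unique words, a restriction chosen after seeing the data, gave 31 open members and a median height of 2.762. The median log2 ratio ran from -0.21 to -0.20 over its 7 alternatives.

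No paired analysis was possible because the series has 1 group and no second condition. One limit is sequence: 28 of 65 members had promoters with under 50% unique words, and reads from their repeated words have no single site. The alleles of C57BL/6J and CAST/EiJ were not told apart. The files give no cut totals, so no counting error is attached to a height, and 2 animals give an SD of low precision.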

Other observations

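Close copies were not always alike in their listed peaks. Over the 2001 bases around the most 5′ TSS, the number of bases identical to the closest other member, in a local alignment, had a median of 644.5 for open members and 1874 for closed ones. This number and uniqueness both follow from repeated sequence, and their parts were not tested. Zfp971 (open) and Zfp970 (closed) are 96.7% identical over 1987 aligned bases. Zfp976 (open) and Zfp977 (closed) are 91.4% identical over 1412 bases, and Zfp984 (open) and Zfp991 (closed) are 82.2% identical over 2024 aligned positions. Among closed members, Zfp978 and Zfp979 are 99.9% identical and Zfp955a and Zfp955b 99.7%. Their unique words ranged from 2.52% in Zfp979 to 17.7% in Zfp955b. In the larger chromosome 17 cluster Zfp947 and Zfp995 are 90.3% identical over 2010 aligned positions and both were open, with mean heights of 0.536 and 1.43. Finger number was alike in open and closed members, with medians of 11 and 10.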
